A study of Homo sapiens with 2 samples.

Results

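The mitosis genes described here are 44 genes fixed by name, which encode the kinases, kinetochore proteins, spindle motors, degradation factors, cytokinesis proteins and chromosome proteins of cell division. All 44 were found by symbol among the 36601 genes of the deposited tables. No measured value served as a rule for the choice, but earlier results of these data were known when it was made. The 44 genes were read in H9, an established human embryonic stem cell line kept in the naive state, the state closest to the preimplantation embryo. Both cultures grew in RSeT medium with 10 nM DZNep, which blocks the methylation carried out by the Polycomb complex PRC2, and 5 nM TSA, a histone deacetylase inhibitor. The cells of each group received 25 nM of a fluorescein-carrying oligonucleotide, either SO-L1, the sense control, or ASO-L1, which is antisense to LINE1 RNA. Compounds that aid survival, Trans-ISRIB (0.7 µM), the caspase inhibitor emricasan (5 µM) and the ROCK inhibitor Y-27632 (10 µM), were present in both groups for the initial 24 hours, and dye-positive cells were sorted at 48 hours. The question taken up was how the mitosis genes differ between the libraries and between cells with little and with ordinary mitochondrial RNA.

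Entry into mitosis is driven by cyclin-dependent kinase 1 with cyclin B, after CDC25 phosphatases remove its inhibitory phosphates. Kinetochores then tie chromosomes to spindle microtubules, and a checkpoint holds the anaphase-promoting complex (APC) back until all are attached. The APC, switched on by CDC20, marks securin and cyclin B for degradation, and the chromosomal passenger complex and the centralspindlin motors complete division. Most of these genes are transcribed in G2 and M phase, through promoter elements known as CHR (cell cycle genes homology region) and CCAAT boxes, which are read by the DREAM complex, MYBL2 with FOXM1, and NF-Y.

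Each group was 1 library, so cells are not replicates, "higher" and "lower" compare these libraries only, and no p-value is given. A cell entered with 1000 or more genes and with below 20% of its UMIs (unique molecular identifiers, counted transcript molecules) from the 13 mitochondrial genes. This kept 6553 of 13070 SO-L1 barcodes and 9084 of 11659 ASO-L1 barcodes. Cells below 2% mitochondrial UMIs, called low-mitochondrial cells here, numbered 1857 in SO-L1 and 2531 in ASO-L1, and the other cells 4696 and 6553. The median low-mitochondrial cell had 33579 (SO-L1) and 44654 (ASO-L1) UMIs outside the mitochondrial genes, and the median other cell 40876.5 and 51945. The libraries shared 6105 barcode sequences. Kept cells with a shared barcode numbered 1062 in SO-L1 and 5308 in ASO-L1, and 274 barcodes were kept in both, so results are given below with and without them. SO-L1 barcodes under 1000 genes, which were left out, held the 44 genes at a summed 5053 CPM (counts scaled to a common total of UMIs outside the mitochondrial genes), against 4315 CPM in kept SO-L1 cells and 5063 CPM in kept ASO-L1 cells. All 14 pluripotency markers had UMIs in each group, and their summed level was 4430 CPM in SO-L1 and 2563 CPM in ASO-L1 low-mitochondrial cells, against 5814 and 5138 CPM in the other cells. Markers of the 8-cell stage moved with the same groups, at a summed 278, 1091, 80.7 and 208 CPM in that order, with DUX4 at 0 UMIs in 3 of the 4 groups, LEUTX in SO-L1 low-mitochondrial cells and MBD3L2 in the other SO-L1 cells. Other marker lists were also highest in low-mitochondrial ASO-L1 cells. In the same order, the 13 trophectoderm or amnion markers summed to 784, 1396, 747 and 785 CPM, and the 12 naive markers to 324, 696, 305 and 432 CPM. The 11 mesoderm or endoderm markers summed to 64.0, 173, 55.3 and 90.6 CPM, the 8 fibroblast markers to 118, 285, 72.6 and 119 CPM, and the 7 neural markers to 729, 819.6, 614 and 508 CPM. Of these lists, LUM, DCN and SOX1 were at 0 UMIs in SO-L1 low-mitochondrial cells and LUM in the other SO-L1 cells. The part of these marker lists in the results below was not tested.

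Promoter sequence is shown because many members share regulatory letters that the choice of genes did not use. RefSeq promoter windows on GRCh38.p14, from 250 bases before to 50 bases after a start site, were at hand for 37 of the 44 genes, in 48 windows. Entries for AURKA, BUB3, TTK, TPX2, UBE2C, BIRC5 and HMGB2 were not in the table. The letters searched were the CHR-type TTTGAA and TTCGAA, with TTCAAA for the other strand, and the CCAAT box CCAAT or ATTGG. The stretches below lie within the 100 bases before the start, end before any annotated exon of the gene, and are printed 5′ to 3′ on the gene's strand with these letters in capitals. CDC20, CKS2 and KIF2C are among the 5 members furthest above SO-L1 in low-mitochondrial ASO-L1 cells, while KIF11 and MKI67 did not reach 1.5-fold there.
CDC20 (chr1:43358881-43358954, + strand): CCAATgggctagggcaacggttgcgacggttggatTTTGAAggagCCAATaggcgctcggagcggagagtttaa
CKS2 (chr9:89311095-89311194, + strand): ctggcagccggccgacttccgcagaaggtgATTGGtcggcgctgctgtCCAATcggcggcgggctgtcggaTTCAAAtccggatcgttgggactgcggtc
KIF2C (chr1:44739737-44739817, + strand): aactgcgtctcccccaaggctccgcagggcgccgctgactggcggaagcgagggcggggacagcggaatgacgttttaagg
KIF11 (chr10:92593030-92593129, + strand): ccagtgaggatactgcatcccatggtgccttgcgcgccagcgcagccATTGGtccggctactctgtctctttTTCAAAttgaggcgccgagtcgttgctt
MKI67 (chr10:128126424-128126523, − strand): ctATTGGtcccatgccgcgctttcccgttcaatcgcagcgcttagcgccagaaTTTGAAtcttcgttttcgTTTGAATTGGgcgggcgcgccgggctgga
CHR-type letters began 65 bases before the start in CDC20, 29 in CKS2, 28 in KIF11, and 47 and 29 in MKI67, where the nearer match overlaps an ATTGG. The printed stretch of KIF2C held none of the letters. Of the 48 member windows, 33 (68.8%) held CHR-type letters, against 16.4% of all 35116 windows of the same length. CCAAT letters were in 34 member windows (70.8%) against 34.6%, and both kinds in 27 (56.3%) against 6.38%. Among genes 1.5-fold higher in low-mitochondrial ASO-L1 cells, 15 of 18 with a window held CHR-type letters, and among the remaining members 15 of 19. A match of letters is a description of the sequence and not a measured binding site.

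Summed over the 44 genes, the level was 3253 CPM in low-mitochondrial SO-L1 cells, 5613 CPM in low-mitochondrial ASO-L1 cells, and 4637 and 4886 CPM in the other SO-L1 and ASO-L1 cells. The low-mitochondrial SO-L1 cells thus lay below the other 3 groups, which lay within 1000 CPM of each other. A gene was counted as higher or lower where its ratio was at least 1.5-fold and the exact conditional binomial (Clopper-Pearson) 95% interval left out 1, among genes with at least 100 UMIs over the groups compared. All 44 members passed that minimum in each comparison. These intervals cover counting error only and are narrow because the sums are large, so they say nothing of the spread between cultures. In low-mitochondrial cells, 22 of 44 members (50%) were higher in ASO-L1, against 22.9% of the 19163 genes measured, and 1 (2.27%) was lower, against 24.9%. The members' median log2 ratio there was 0.58, against −0.01 over all genes. In the other cells, 4 members (9.09%) were higher, against 12.2%, and 2 (4.55%) lower, against 15.7%, with a median of 0.06 against −0.06. Without the shared barcodes the median was 0.47 in low-mitochondrial cells, with 21 higher (28.5% of all genes measured in those cells) and 1 lower (23.9%), and 0.04 in the other cells, with 5 higher (11.2%) and 3 lower (25.5%). Over all kept cells, 11 members (25%) were higher in ASO-L1, against 16.0% of 22850 genes, and 1 (2.27%) lower, against 18.0%. Leaving out only the SO-L1 cells with a shared barcode gave 25 members higher in low-mitochondrial cells, against 22.6% of all genes, and 7 higher in the other cells, against 12.3%.

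**Figure D1:**
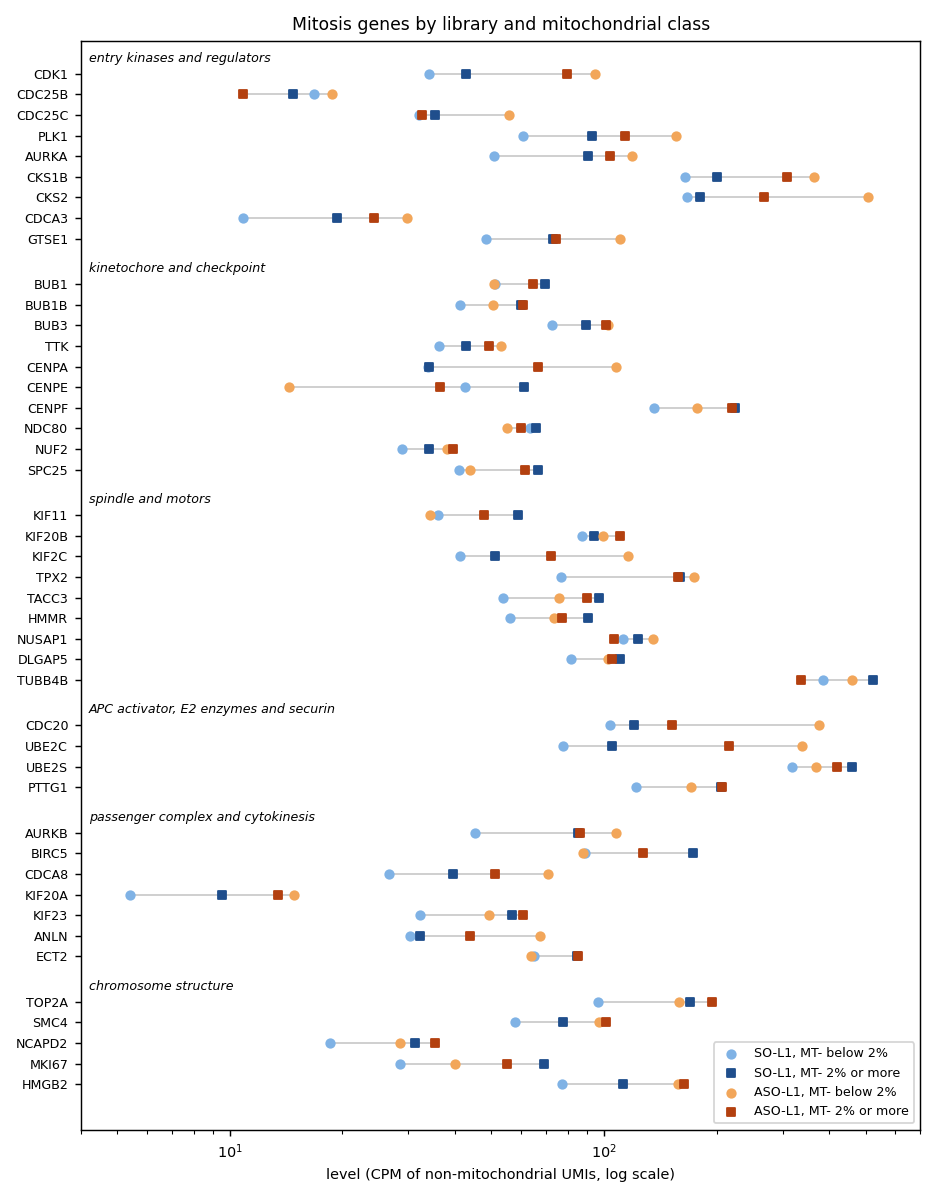
Level of each of the 44 genes (log axis, CPM of UMIs outside the mitochondrial genes) in the 4 groups, with genes ordered by role. Circles are low-mitochondrial cells and squares the other cells, light and dark blue SO-L1, light and dark orange ASO-L1. Each point is a sum over the cells of 1 library, and its counting error is smaller than or close to the symbol. The light blue circles lie lowest for most genes, and CENPE is the gene whose light orange circle lies far to the left, at 14.4 CPM.

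The kinases and regulators of mitotic entry stood furthest apart as a group. Of 9, 8 (88.9%) were higher in low-mitochondrial ASO-L1 cells than in their SO-L1 counterparts (median log2 ratio 1.22), against 22.9% of all genes. In the other cells 2 (22.2%) were higher (median 0.29), against 12.2%. CDK1, the kinase that starts mitosis (chr10:60778331-60794852), measured 34.0 CPM in SO-L1 and 94.8 CPM in ASO-L1 low-mitochondrial cells, and 42.8 and 79.7 CPM in the other cells. Both ASO-L1 groups were above both SO-L1 groups, by 2.79-fold (95% interval 2.66 to 2.92) and 1.86-fold (1.82 to 1.91). CKS2, a small subunit that binds cyclin-dependent kinases (chr9:89311198-89316703), measured 167 and 507 CPM in low-mitochondrial cells and 180.1 and 267 CPM in the others. It stood 3.04-fold (2.98 to 3.11) higher in the low-mitochondrial and 1.48-fold (1.46 to 1.501) in the other ASO-L1 cells, the latter short of the limit. Its paralog CKS1B (chr1:154974653-154979249) measured 165 and 365 CPM, and 201 and 309 CPM, which is 2.21-fold (2.16 to 2.26) and 1.54-fold (1.52 to 1.55). CKS1B has 6 pseudogenes named after it in GENCODE 29, and reads shared with them could be split in the counting. Also 1.5-fold higher in low-mitochondrial cells, and within 1.5-fold in the others, were the polo-like kinase PLK1 (2.57-fold), the spindle pole kinase AURKA (2.33-fold), CDCA3, a factor that promotes mitotic entry (2.74-fold), the microtubule-binding protein gene GTSE1 (2.29-fold) and the phosphatase CDC25C (1.75-fold). These genes and their values were chosen after the values were seen. CDC25B, the other phosphatase, was the 1 member of the group that did not reach 1.5-fold, at 1.12-fold and 0.735 times.

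Kinetochore and checkpoint genes mostly differed little, with CENPA and CENPE at the ends of the range. Of 10, 1 was higher and 1 lower in each mitochondrial class (10% each), and the medians were 0.34 and −0.01. Of all genes, 22.9% were higher and 24.9% lower in low-mitochondrial cells, and 12.2% and 15.7% in the others. CENPA, the histone H3 variant that marks centromeres (chr2:26764289-26801067), measured 33.8 CPM in SO-L1 and 107 CPM in ASO-L1 low-mitochondrial cells, and 34.0 and 66.7 CPM in the other cells. The SO-L1 classes were level with each other (ratio 0.995, 0.946 to 1.05), and ASO-L1 stood 3.17-fold (3.03 to 3.33) and 1.96-fold (1.91 to 2.02) above them. CENPE, the kinetochore motor that carries chromosomes to the spindle equator (chr4:103105806-103198409), went the other way, at 42.5 and 14.4 CPM in low-mitochondrial cells and 61.2 and 36.5 CPM in the others. It was 0.339 times (0.319 to 0.361) and 0.596 times (0.581 to 0.611) the SO-L1 level, and the only member lower in both classes. The genes of the group with most UMIs were CENPF, a large outer kinetochore protein (chr1:214603195-214664588), and the checkpoint gene BUB3 (chr10:123154277-123170467). CENPF measured 136 and 177 CPM, and 224 and 219.99 CPM, or 1.31-fold and 0.984 times. BUB3 measured 72.7 and 102 CPM, and 89.7 and 101 CPM, or 1.41-fold and 1.13-fold. The NDC80 complex, which grips microtubules, was measured by NDC80 (0.868 and 0.914 times), NUF2 (1.31 and 1.16) and SPC25 (1.07 and 0.921), and the checkpoint kinases BUB1 (0.997 and 0.928), BUB1B (1.22 and 1.01) and TTK (1.46 and 1.15) also stayed within 1.5-fold.

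Spindle genes were split between 2 that were higher in low-mitochondrial ASO-L1 cells and 7 within 1.5-fold (median 0.33). The share higher was 22.2%, close to the 22.9% of all genes. In the other cells 1 was lower (11.1%, against 15.7% of all genes, median −0.11). KIF2C, a kinesin that takes microtubules apart at centromeres (chr1:44739818-44767767), measured 41.1 and 116 CPM in low-mitochondrial cells and 51.1 and 72.03 CPM in the others. It was 2.81-fold (2.70 to 2.94) and 1.41-fold (1.38 to 1.44) higher. TPX2, which activates AURKA on the spindle (chr20:31739271-31801805), measured 76.5 and 174 CPM in low-mitochondrial cells and 159.6 and 157 CPM in the others. Its 3 highest groups were close together and the low-mitochondrial SO-L1 cells stood apart below them, which gave ratios of 2.27 (2.198 to 2.35) and 0.986 (0.972 to 0.999). TUBB4B, a beta-tubulin (chr9:137241213-137243707), measured 384 and 461 CPM, and 525 and 336 CPM, so its order turned between the classes, at 1.201-fold (1.18 to 1.22) and 0.641 times (0.636 to 0.647). It has 7 named pseudogenes, and its lower value in the other cells was no longer counted once ratios were divided by the median ratio of all genes. The motors KIF11 and KIF20B, and TACC3, HMMR, NUSAP1 and DLGAP5, which bind or organise microtubules, ranged from 0.949 to 1.41 times in low-mitochondrial and from 0.811 to 1.17 times in the other cells.

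The APC set held the largest ratio of all 44 genes. UBE2C, the E2 enzyme that starts ubiquitin chains on APC substrates (chr20:45812576-45816957), measured 77.8 CPM in SO-L1 and 338 CPM in ASO-L1 low-mitochondrial cells, and 105 and 216 CPM in the other cells. Both ASO-L1 groups were above both SO-L1 groups, by 4.34-fold (4.21 to 4.48) and 2.06-fold (2.03 to 2.09). UBE2C has 4 named pseudogenes. CDC20, the APC activator (chr1:43358955-43363203), measured 104 and 375 CPM, and 119.9 and 152 CPM. It was 3.61-fold (3.51 to 3.71) higher in low-mitochondrial and 1.27-fold (1.25 to 1.29) in the other cells, and the low-mitochondrial ASO-L1 group alone stood apart. UBE2S, the E2 enzyme that extends the chains (chr19:55399745-55407777), measured 317 and 369 CPM, and 460.0 and 419 CPM, or 1.16-fold and 0.910 times. PTTG1, securin, was 1.41-fold and 1.01-fold. The set's medians were 1.17 and 0.18.

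Of 7 passenger complex and cytokinesis genes, 5 (71.4%) were higher in low-mitochondrial ASO-L1 cells (median 1.15), against 22.9% of all genes. None reached 1.5-fold in the others (median 0.10), where 12.2% of all genes were higher. KIF20A, a motor that brings the passenger complex to the midzone (chr5:138178719-138187715), measured 5.42 and 14.9 CPM, and 9.53 and 13.4 CPM, or 2.75-fold (2.43 to 3.10) and 1.41-fold (1.34 to 1.49). CDCA8, borealin (chr1:37692418-37709719), measured 26.7 and 71.0 CPM, and 39.5 and 51.0 CPM, or 2.66-fold (2.52 to 2.81) and 1.29-fold (1.26 to 1.33). AURKB, the kinase of the complex (chr17:8204733-8210600), measured 45.2 and 108 CPM, and 85.3 and 86.2 CPM, or 2.38-fold (2.28 to 2.48) and 1.01-fold (0.992 to 1.03). In these 3 genes the low-mitochondrial SO-L1 cells were the lowest group. BIRC5, survivin, a partner of AURKB in the same complex (chr17:78214186-78225636), measured 89.1 and 87.7 CPM, and 173 and 127 CPM, so both low-mitochondrial groups were level (0.984, 0.952 to 1.02) and below both others. The ring-forming protein gene ANLN (2.22-fold) and the centralspindlin motor KIF23 (1.52-fold) were also higher in low-mitochondrial cells, while ECT2, which activates RhoA for furrowing, was 0.981 times.

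Of 5 chromosome structure genes, 4 (80%) were higher in low-mitochondrial ASO-L1 cells (median 0.71), against 22.9% of all genes. None was higher in the others (median 0.19), against 12.2%. HMGB2, a DNA-bending protein (chr4:173331695-173335125), measured 77.05 and 157 CPM, and 113 and 163 CPM, or 2.04-fold (1.98 to 2.11) and 1.45-fold (1.43 to 1.47). SMC4, a condensin subunit (chr3:160399274-160434962), measured 57.8 and 96.8 CPM, and 77.7 and 101 CPM, or 1.67-fold (1.61 to 1.74) and 1.30-fold (1.27 to 1.32). TOP2A, which untangles sister DNA (chr17:40388516-40417950), measured 96.6 and 158 CPM, and 169.7 and 194 CPM, or 1.64-fold (1.59 to 1.69) and 1.14-fold (1.13 to 1.16). All 3 were lowest in the low-mitochondrial SO-L1 cells. The condensin gene NCAPD2 was 1.53-fold and 1.13-fold, and MKI67, the proliferation antigen Ki-67, 1.401-fold and 0.798 times.

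**Figure D2:**
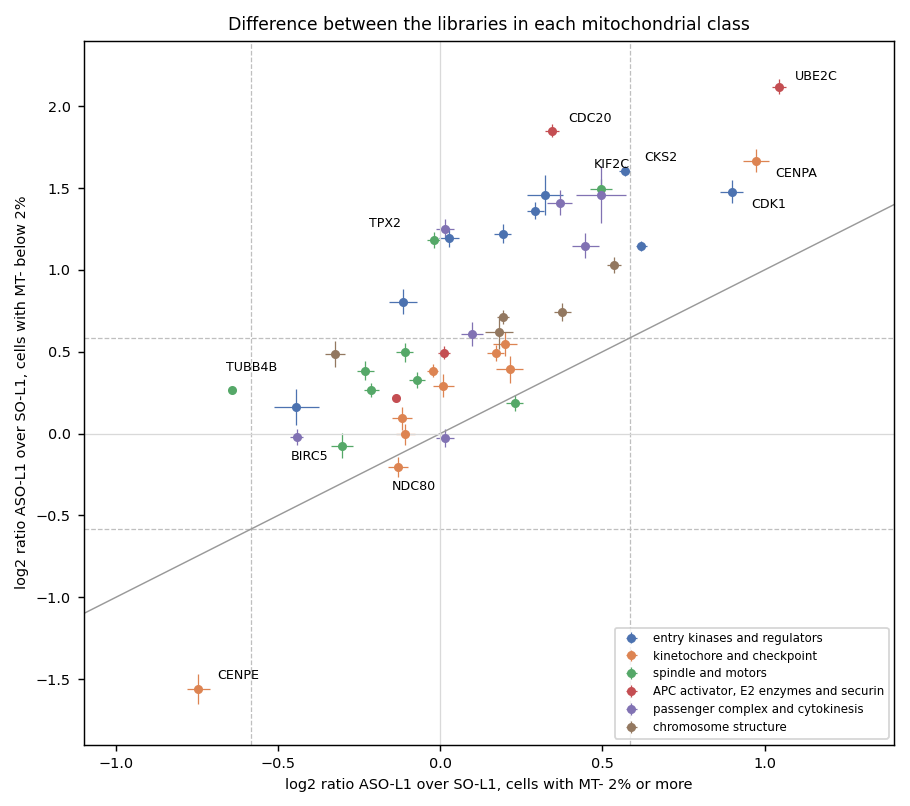
Log2 ratio of ASO-L1 over SO-L1 for each of the 44 genes, in cells at 2% mitochondrial UMIs or more (horizontal axis) and below 2% (vertical axis), coloured by role, with exact 95% counting intervals. Dashed lines mark 1.5-fold and the slanted line equal ratios. Most genes lie above the slanted line, UBE2C, CENPA, CDK1 and CKS1B lie past 1.5-fold on both axes, and CENPE lies alone at the lower left.

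The same levels were next read between the mitochondrial classes within a library. These comparisons reuse the 4 groups above and are not separate evidence. In SO-L1, 18 of 44 members (40.9%) were lower in low-mitochondrial than in the other cells, against 6.32% of 19452 genes, and 0 were higher, against 19.9%. The members' median log2 ratio was −0.53, against 0.09 over all genes. The lowest were MKI67 at 0.413 times (0.392 to 0.434), TPX2 at 0.479 (0.465 to 0.495), BIRC5 at 0.514 (0.4996 to 0.530) and AURKB at 0.530 (0.508 to 0.552), named after their values were seen. Every role had members among the 18, from 2 of 10 among kinetochore genes to 3 of 5 among chromosome structure genes. In ASO-L1, 8 members (18.2%) were higher in the low-mitochondrial cells, against 27.1% of 21455 genes, and 1 (2.27%) was lower, against 12.8%. The median was −0.01, against 0.14 over all genes. The higher ones were CDC20 (2.46-fold, 2.43 to 2.49), CKS2, CDC25B, CDC25C, CENPA, KIF2C, UBE2C and ANLN, the last at 1.53-fold, and the lower one was CENPE (0.395 times, 0.375 to 0.416). No member was counted in the same direction in both libraries. Without the shared barcodes the SO-L1 count was 19 lower, against 6.21% of all genes. The ASO-L1 counts were then 7 higher and 7 lower, against 39.4% and 10.6%. Divided by the median ratio of all genes, the ASO-L1 counts were 4 higher and 5 lower, against 4711 and 3799 of the 21455 genes, so the split in that library depends on the scale.

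**Figure D3:**
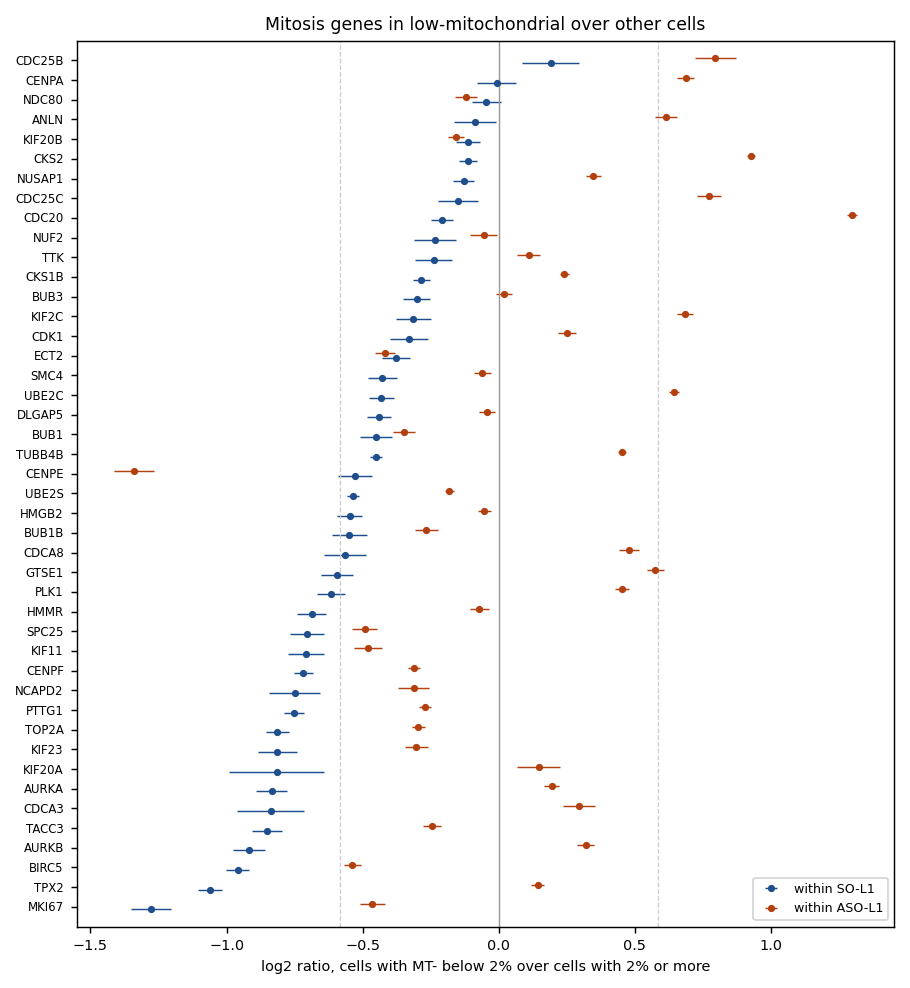
Log2 ratio of low-mitochondrial over other cells for each of the 44 genes within SO-L1 (blue) and within ASO-L1 (orange), with exact 95% counting intervals and dashed lines at 1.5-fold. Genes are ordered by the SO-L1 ratio. The blue points lie mostly left of 0, down to MKI67 at −1.28, and the orange points lie on both sides, from CENPE at −1.34 to CDC20 at 1.30.

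Along finer steps of the mitochondrial share the summed levels of the libraries came close at the high end and parted at the low end. At 10% to 20% mitochondrial UMIs the 44 genes summed to 4653 CPM in SO-L1 and 4792 CPM in ASO-L1, and below 0.25% to 3247 and 5644 CPM. The close sums at the high end held differences in both directions. Entry kinases and regulators stood there at 759 and 919 CPM, and spindle genes at 1315 and 1139 CPM. CDC20 stood at 123 and 121 CPM at the high end, and at 106 and 381 CPM at the low end. CENPE stood at 62.5 and 54.7 CPM at the high end, and at 42.2 and 14.5 CPM at the low end. So these 2 genes were close between the libraries where mitochondrial RNA was most abundant, and stood apart in opposite directions where it was scarce. UBE2C did not meet, at 108 and 199 CPM at the high end and 77.9 and 335 CPM at the low end. The smallest of the 9 steps held 119 SO-L1 and 219 ASO-L1 cells. Some middle steps held shallow cells. At 1% to 2% and 2% to 4% the median SO-L1 cell had 5634 and 3326.5 UMIs outside the mitochondrial genes, against 38757 below 0.25%. In ASO-L1 these medians were 14778 and 36669, against 52710.

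**Figure D4:**
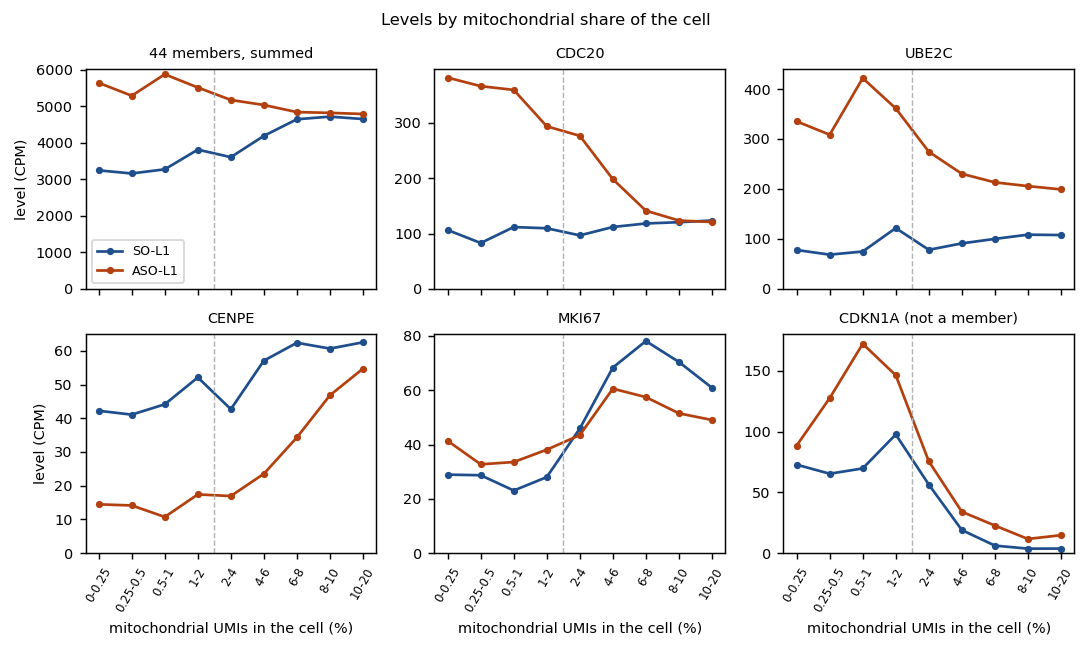
Level (CPM of UMIs outside the mitochondrial genes) of the 44 genes summed, of CDC20, UBE2C, CENPE and MKI67, and of the cell cycle inhibitor CDKN1A, which is no member, against the mitochondrial share of the cell in 9 steps (percent). Blue is SO-L1, orange ASO-L1, and the dashed line is the 2% limit. In ASO-L1, CDC20 reaches 381 CPM in the leftmost step, where CENPE stands at 14.5 CPM, and the lowest CENPE level is 10.7 CPM at 0.5 to 1%.

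To ask how many members a cell expresses together, each cell was thinned at random to 8000 UMIs outside the mitochondrial genes and the members with a UMI were counted. This left out 303 and 351 shallower SO-L1 cells and 296 and 233 ASO-L1 cells, low-mitochondrial and other in that order. The median cell held 15 members in low-mitochondrial SO-L1, 20 in low-mitochondrial ASO-L1, 19 in the other SO-L1 and 20 in the other ASO-L1 cells. At least 15 members were found in 50.6% (95% Clopper-Pearson interval 48.1% to 53.2%) of low-mitochondrial SO-L1 cells and 77.4% (75.6% to 79.1%) of low-mitochondrial ASO-L1 cells. In the other cells the shares were 81.3% (80.1% to 82.5%) and 82.1% (81.2% to 83.1%). Without thinning they were 75.9%, 89.8%, 92.5% and 96.7% in that order, and without the shared barcodes, thinned, 48.0%, 70.5%, 79.6% and 74.8%. At least 20 members were found in 22.7%, 51.0%, 48.1% and 52.0% of cells. Fewer than 10 were found in 23.7% (21.6% to 25.9%) of low-mitochondrial SO-L1 cells, against 6.35%, 1.80% and 2.71% in the other groups. So the low-mitochondrial SO-L1 group differed at the low end as well as in the middle. No cell type known to lack these transcripts was at hand, so how much free RNA adds to these shares was not tested.

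**Figure D5:**
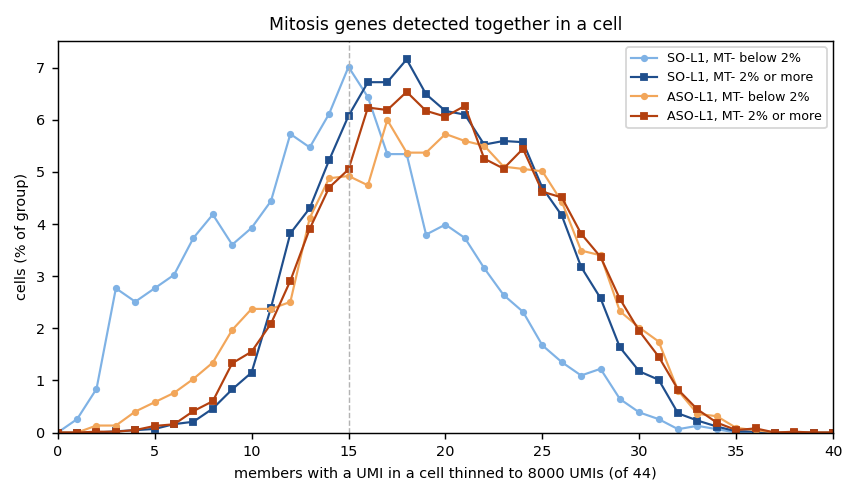
Share of cells (percent of the group) by the number of the 44 genes with a UMI, after thinning each cell to 8000 UMIs, for the 4 groups. The dashed line marks 15 members. The light blue curve, low-mitochondrial SO-L1 cells, lies to the left with a median of 15, and the other 3 curves largely overlap at medians of 19 and 20.

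Kinetochore, spindle and APC members were also counted apart in the thinned cells. Of the low-mitochondrial cells, 55.8% (SO-L1) and 66.4% (ASO-L1) held at least 3 of 10 kinetochore genes, against 76.0% and 74.6% of the other cells. At least 3 of 9 spindle genes were found in 71.0% and 85.2%, and in 92.3% and 88.3%. At least 2 of 4 APC genes were found in 67.8% and 88.9%, and in 91.3% and 91.6%. Low-mitochondrial ASO-L1 cells thus came within 3 percentage points of the other ASO-L1 cells for the APC set, and stood over 8 points below them for the kinetochore set. These gaps are not directly comparable, because the limits differ and the APC shares are near their ceiling. UBE2S alone had a UMI in 86.9% of low-mitochondrial and 91.0% of the other ASO-L1 cells. The spindle shares have a like limit, because TUBB4B alone had a UMI in most cells. Its shares were 89.7% of low-mitochondrial cells in each library, and 97.4% (SO-L1) and 88.2% (ASO-L1) of the others. All 3 conditions were met in 1 cell by 37.4% (35.0% to 39.8%) and 56.8% (54.7% to 58.9%) of low-mitochondrial cells, and by 66.2% (64.8% to 67.6%) and 64.4% (63.2% to 65.6%) of the others. By gene, UBE2C had a UMI in 34.6% and 70.6% of low-mitochondrial cells and 44.7% and 62.8% of the others. CENPE had a UMI in 23.3% (21.2% to 25.5%) and 8.86% (7.71% to 10.1%), and in 32.4% and 19.5%.

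The label of the set was checked by asking whether its genes vary together from cell to cell. For each gene, thinned cells with at least 20 of the other 43 members were compared with cells that had fewer than 15. This contrast was set after the planned one left too few cells, and it concerns the co-variation of the set, with no test. The median ratio was 2.59 in low-mitochondrial SO-L1 cells, where all 42 genes with enough UMIs were at least 1.5-fold higher in the rich cells. It was 2.63 in low-mitochondrial ASO-L1 cells (41 of 44), 1.96 in the other SO-L1 cells (35 of 44) and 2.30 in the other ASO-L1 cells (39 of 44). Of all genes measured in the same cells, 2.76%, 7.64%, 1.89% and 2.84% were that much higher, in that order. Listed S phase genes, no members, had medians of 1.02, 1.10, 0.929 and 0.908, regulators of mitosis gene transcription 1.09, 0.989, 1.07 and 1.08, and spindle genes outside the set 2.28, 1.63, 1.80 and 1.85. Of those spindle genes, 13 of 19, 10 of 20, 12 of 20 and 13 of 20 were at least 1.5-fold higher. PLK1 had the largest ratio in low-mitochondrial SO-L1 cells, 6.77 (5.52 to 8.35), and PTTG1 the smallest in the other SO-L1 cells, 1.06 (0.996 to 1.12). CENPE was the exception in low-mitochondrial ASO-L1 cells. Its level was 16.4 CPM in rich and 16.6 CPM in poor cells there, a ratio of 0.985 (0.736 to 1.33), while the ratio was 3.55 (2.83 to 4.46) in low-mitochondrial SO-L1 cells, 2.81 (2.42 to 3.28) in the other SO-L1 cells and 3.45 (2.87 to 4.18) in the other ASO-L1 cells. The cyclin gene CCNB1, which is no member, followed the set in each group, at 3.11, 3.02, 1.68 and 2.35, and the inhibitor CDKN1A did not, at 0.860, 0.857, 0.383 and 0.921.

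Part of the difference between the libraries was still seen among cells rich in the set, which were not equally rich in SO-L1 and ASO-L1. Among thinned low-mitochondrial cells with at least 15 of the other members, the median log2 ratio of ASO-L1 over SO-L1 was 0.33, with 19 of 44 higher and 1 lower. Over all genes measured in these cells it was 0.02, with 23.8% higher and 23.3% lower. UBE2C was 3.33-fold (3.08 to 3.60), CENPA 3.03-fold (2.65 to 3.49) and CDC20 2.66-fold (2.48 to 2.85) higher, and CENPE was 0.277 times (0.232 to 0.331). Among rich cells with more mitochondrial RNA the median was 0.08, with 5 higher and 2 lower, against −0.05, 10.0% and 12.7% over all genes. The limit of 15 has no upper end. Of the low-mitochondrial ASO-L1 cells, 1730 held at least 15 of the 44 members and 1140 of these at least 20, against 787 and 353 in SO-L1. How much of the difference among rich cells goes with this was not tested. Depth moved with the groups too, so levels were read in steps of depth. Among cells with 40000 to 60000 UMIs the 44 genes summed to 3405 CPM in low-mitochondrial and 4908 CPM in the other SO-L1 cells, and to 4879.5 and 4423 CPM in ASO-L1. Low-mitochondrial SO-L1 cells were thus lowest at this depth as well, but the order of the remaining groups changed. The other SO-L1 cells stood above both ASO-L1 groups here, and below both over all depths. In each shallower and deeper step low-mitochondrial SO-L1 cells were lowest and low-mitochondrial ASO-L1 cells highest.

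Other genes of mitosis, from a list that holds no member, had a smaller median. In low-mitochondrial cells 30 of 102 measured (29.4%) were higher in ASO-L1 and 9 (8.82%) lower (median 0.16), against 22.9% and 24.9% of all genes. In the other cells 3 were higher and 3 lower (2.94% each, median 0.01), against 12.2% and 15.7% of all genes. Cyclins and entry factors held 9 of the 30 among 13 genes, with none lower. CCNA2, cyclin A2, measured 49.7 and 116 CPM, and 81.6 and 139 CPM, or 2.34-fold and 1.71-fold. CCNB1, cyclin B1, measured 152 and 234 CPM, and 246 and 235 CPM, or 1.54-fold and 0.957 times, and CCNB2 was 1.93-fold and 1.19-fold. PKMYT1, a kinase that holds CDK1 inactive, was the lowest of that list at 0.954 times in low-mitochondrial cells.

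Subunits and inhibitors of the APC went both ways, 3 of 17 higher and 3 lower (17.6% each, median −0.17). Of all genes, 22.9% were higher and 24.9% lower. FBXO5, an APC inhibitor, was 3.59-fold (3.36 to 3.85) higher in low-mitochondrial ASO-L1 cells, at 16.6 and 59.5 CPM. CDC16, an APC core subunit, was 0.211 times (0.202 to 0.221), at 112 and 23.6 CPM, and 0.425 times in the other cells. Other kinetochore genes ranged from CENPM at 0.232 times to CENPL at 2.46-fold, both centromere proteins. Other spindle genes ranged from the motor KIF18B at 0.533 times to FAM83D, which places a kinase on the spindle, at 2.78-fold. Among cytokinesis genes RACGAP1, the centralspindlin partner of KIF23, was 3.21-fold and RHOA 1.02-fold, and among chromosome genes the cohesin subunit SMC1A was 0.380 times and the condensin subunit NCAPG 1.89-fold. Low values such as that of CENPE thus occurred for single genes of several lists, beside higher neighbours in the same list.

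Listed regulators of mitosis gene transcription showed no common direction. The list holds E2F and RB family genes beside those known to read CHR and CCAAT letters, which were not summarised apart. Of 19 genes for transcription of the mitosis programme, 5 were higher (26.3%) and 3 lower (15.8%) in low-mitochondrial cells (median −0.10). Over all genes the shares there were 22.9% and 24.9%. MYBL2, which activates with the MuvB complex, measured 132 and 300 CPM, and 151 and 183 CPM, or 2.28-fold (2.22 to 2.34) and 1.21-fold. FOXM1, its partner in G2, was 1.26-fold (1.21 to 1.31) and 0.954 times, and RBL2, the p130 protein of the repressive DREAM complex, 0.540 times and 0.758 times. Among 22 S phase genes, 5 were higher (22.7%) and 2 lower (9.09%), with a median of 0.26, from GINS2 at 0.258 times to CCNE2 at 2.41-fold. Their share of higher genes was close to that of all genes. Within SO-L1, 12 of 22 S phase genes (54.5%) were lower in low-mitochondrial than in the other cells (median −0.62), against 6.32% of all genes. Lower values in low-mitochondrial SO-L1 cells were thus also found outside the mitosis genes.

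Cell cycle inhibitor genes moved with the mitochondrial classes in both libraries. They summed to 505 CPM in SO-L1 and 782 CPM in ASO-L1 low-mitochondrial cells, against 222 and 335 CPM in the others. CDKN1A, the p21 inhibitor of cyclin-dependent kinases, measured 72.4 and 99.1 CPM, and 6.00 and 24.0 CPM. It was 1.37-fold (1.32 to 1.42) higher in ASO-L1 in low-mitochondrial and 4.00-fold (3.77 to 4.26) in the other cells. From the same list GADD45A, a growth arrest gene, was 4.21-fold and BTG2, an antiproliferative gene, 0.424 times in low-mitochondrial cells. Thinned cells with a UMI of CDKN1A made up 36.9% and 43.4% of the low-mitochondrial cells and 3.22% and 12.3% of the others. In low-mitochondrial SO-L1 cells the 44 genes summed to 3104 CPM (3053 to 3155) with a CDKN1A UMI and 3173 CPM (3134 to 3212) without. In low-mitochondrial ASO-L1 cells the sums were 5658 CPM (5605 to 5711) with and 5189 CPM (5145 to 5234) without, and in the other ASO-L1 cells 4989 and 4616 CPM. In the other SO-L1 cells they were 3826 CPM (3712 to 3942) with and 4497 CPM (4474 to 4520) without, on 140 cells with a UMI. By summed level the order was thus opposite in ASO-L1 and in the other SO-L1 cells, while in low-mitochondrial SO-L1 cells the intervals overlapped. These intervals cover counting error only. The share of cells with at least 15 members was instead lower with a CDKN1A UMI in each group. It was 47.1% with and 52.7% without in low-mitochondrial SO-L1 cells, and 77.1% and 77.6% in low-mitochondrial ASO-L1 cells. In the other cells it was 67.1% and 81.8% (SO-L1), and 79.6% and 82.5% (ASO-L1). At 20 or more members the share was 23.0% with and 22.5% without in low-mitochondrial SO-L1 cells. It was 49.7% and 52.0% in low-mitochondrial ASO-L1 cells, and 28.6% and 48.8% (SO-L1) and 51.4% and 52.0% (ASO-L1) in the other cells. Only in the other SO-L1 cells did the intervals of these shares not overlap. The difference between the libraries was not tested.

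The log2 ratio was higher for members with short transcripts and for those with a short gene span. Across the 44 genes, Spearman's rho of the log2 ratio in low-mitochondrial cells with the longest coding transcript was −0.40, against −0.13 across all 14959 genes with a length. With the gene span, rho across the 44 genes was −0.51, and the part of each length was not told apart. The 11 genes with the shortest transcripts, 613 to 1948 bases, had a median log2 ratio of 1.25, with 8 higher and 0 lower. The 11 with the longest, 4406 to 12678 bases, had a median of 0.49, with 4 higher and 1 lower. Over all genes measured in low-mitochondrial cells, 22.9% were higher and 24.9% lower. Genes are not independent, all share the same libraries and cells, and rho is given as a description with no p-value.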

How the data were processed

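Single-cell RNA-seq (10x 3′ v3) was read from 2 libraries, 1 per group. What the authors deposited are raw counts of UMIs for every gene in every barcode. Cell Ranger 7.1.0 and hg38 are named in the submitters' processing notes, while the annotation release, how cells were called and whether introns were counted were not given in the sources used here. Python 3.11.15, numpy 2.4.6, scipy 1.17.1 and pandas 2.3.3 were used. Cells with at least 1000 genes and under 20% mitochondrial UMIs were kept and split at 2%. No doublet caller was run, and the 5% of cells with most UMIs were left out as an alternative. Counts were summed per group and divided by the total outside the 13 mitochondrial genes (CPM). Ratios carry exact conditional 95% intervals. Every ratio was computed over the whole table, and scripts were tested on simulated data.

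With 1 library per group no replicate test was possible. Alternatives covered the cell filter, scaling, weighting, thinning depth and seed, the member limit, the class limit and shared barcodes; those on cells with 8000 UMIs or more, on barcodes kept in both libraries and on SO-L1 cells with a shared barcode were added after the data were seen. The members and lists were chosen with earlier results of these data known. Values are given for the 2 members of each role with most UMIs and the 2 with the largest ratio in low-mitochondrial cells, for the highest and lowest gene of each other list, and for CDKN1A, CCNB1, CCNB2, CCNA2 and FOXM1. Gene identifiers were matched to GENCODE 29 (GRCh38) for positions and lengths. Of 281 listed genes, 1 was matched by identifier under another symbol. Of the members, 13 have named pseudogenes, whose reads could be split.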

Additional observations from a re-analysis of the deposited data

Results flagged for a closer look

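TPX2 stood at 0.986 times the SO-L1 level in cells at 2% mitochondrial UMIs or more and at 2.27-fold in low-mitochondrial cells, a ratio of the ratios of 2.30. It is given here because its counting intervals left out 1 on opposite sides and the ratios differed at least 2-fold. The median ratio of all genes in cells at 2% or more was 0.957, so 0.986 lies above that median. The opposite direction of TPX2 thus depends on the scale. The difference itself was not tested.

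The same holds for 10 members whose ratio of low-mitochondrial over other cells was below 1 in SO-L1 and above 1 in ASO-L1, with both counting intervals leaving out 1 and the ratios at least 2-fold apart. Members with opposite ratios that were less far apart are not listed. The median ratio of all genes was 1.06 within SO-L1 and 1.10 within ASO-L1. The ASO-L1 ratios of TPX2 (1.10) and AURKA (1.14) lay at or little above that median, so their direction depends on the scale. These rest on the same 4 groups as the ratios between libraries, and the difference was tested in none of them. CDC20 stood at 0.866 (SO-L1) and 2.46 (ASO-L1), a ratio of 2.84. AURKB stood at 0.530 and 1.25 (ratio 2.35), TPX2 at 0.479 and 1.10 (2.30), GTSE1 at 0.662 and 1.49 (2.25) and CDCA3 at 0.559 and 1.23 (2.19). UBE2C stood at 0.741 and 1.56 (2.11), PLK1 at 0.653 and 1.37 (2.10), CDCA8 at 0.676 and 1.39 (2.06), CKS2 at 0.925 and 1.90 (2.05) and AURKA at 0.561 and 1.14 (2.04).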

How the results depend on the processing

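Of the member medians and shares of cells, 74 values under alternatives kept their direction and stayed close to the reported one. The median within ASO-L1, −0.01, lies next to 0 and turned positive with mitochondrial genes kept in the total (0.10), as a mean of per-cell CPM (0.058), without shared barcodes (0.0066) and without the 5% of cells with most UMIs (0.0018). Over all kept cells the median of 0.23 became 0.33 without SO-L1 cells with a shared barcode. Shares of cells with 15 or more members depend on depth and limit by construction, given here for low-mitochondrial SO-L1, other SO-L1, low-mitochondrial ASO-L1 and other ASO-L1 cells. At 4000 UMIs they were 12.8%, 31.6%, 38.3% and 36.4%, and at 12000 UMIs 70.5%, 96.2%, 90.6% and 95.5%. At 10 or more members they were 76.3%, 98.2%, 93.6% and 97.3%, and at 20 or more 22.7%, 48.1%, 51.0% and 52.0%. Without shared barcodes they were 48.0%, 79.6%, 70.5% and 74.8%, and the cause was not tested. The low-mitochondrial SO-L1 share was the lowest of the 4 under each of these settings. As a mean of per-cell CPM, 2 members were lower within ASO-L1, against 9.01% of all genes measured. Divided by the median ratio of all genes, 1 was lower between libraries at 2% or more, against 13.3%. No paired analysis was possible because each group has 1 library. Depth limits the thinned shares, and intervals leave out the spread between libraries and between cells.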
